A study of Homo sapiens with 8 samples.

Results

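The genes described are 10 human aldehyde dehydrogenases: ALDH3A1, ALDH3A2, ALDH3B1, ALDH3B2, ALDH1A1, ALDH1B1, ALDH2, ALDH4A1, ALDH7A1 and ALDH9A1. They were taken by symbol from the deposited table of 18164 genes, and all 10 were found and were high enough to be tested. ALDH3A1 is the center of the account and was picked because its level differed between the treatment groups, so its difference is given as a description with no test, and the other 9 were listed with earlier results of these data known. The unit is TPM, a relative transcript abundance that is corrected for length and has the same total in every library.

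The 8 samples are tumors grown from HCC1937, a human triple-negative breast cancer cell line in long use, after 1000000 cells were placed in the inguinal mammary fat pad of NCG mice. NCG carries disrupted Prkdc and Il2rg genes on a NOD/ShiLtJGpt background and lacks functional T, B and NK cells, whereas its myeloid and stromal cells remain. Treatment began at tumor volumes of 100 to 150 mm3. In the NMN group (n = 4) the agent was nicotinamide mononucleotide, from which cells make NAD+, dosed at 500 mg/kg/day. The Vehicle group (n = 4) was given vehicle. The tumors are called NMN 1 to 4 and Vehicle 1 to 4. All come from 1 line, the ages of the mice and the length of treatment are not given in the sources used here, and nothing in the labels says whether any mouse gave more than 1 tumor. The p-values therefore reflect only how much these 8 samples vary, which may be partly technical.

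Aldehyde dehydrogenases oxidize aldehydes to carboxylic acids and pass the electrons to NAD+ or, in some members, NADP+. A cysteine in the active site attacks the aldehyde, and the bound cofactor takes up the hydride before water or another acceptor releases the acid. The substrates range from ethanol-derived acetaldehyde and lipid peroxidation products to retinaldehyde and intermediates of amino acid breakdown. In breast tissue the ALDH1A enzymes are best known, because their activity is used to sort stem-like cells. ALDH3A1 is abundant in cornea and stomach, is induced through the aryl hydrocarbon receptor and accepts either cofactor.

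The active-site cysteine codon lies in the longest stretch that ALDH3A1 shares with ALDH3B2 in the coding sequence, which is why that stretch is shown here for the 4 ALDH3 genes. In ALDH3A1 it lies on the minus strand at chr17:19741153-19741179 (GRCh38), in exon 5 of 10. The sequences are from GENCODE 29, 5′ to 3′, with the cysteine codon in capitals, which is codon 244 in ALDH3A1 and ALDH3B1, 241 in ALDH3A2 and 163 in the shorter ALDH3B2 coding sequence.
ALDH3A1: ggccagaccTGCgtggcccctgactac
ALDH3A2: ggccaaaccTGCattgcacccgactat
ALDH3B1: ggccagaccTGCgtggcccccgactac
ALDH3B2: ggccagaccTGCgtggcccctgactac
Over these 27 bases ALDH3B2 differed from ALDH3A1 at 0 positions, ALDH3B1 at 1 and ALDH3A2 at 6. Over the whole coding sequence ALDH3A1 had 67.6% of aligned bases in common with ALDH3A2, 66.4% with ALDH3B1 and 67.7% with ALDH3B2, and the window was picked as the longest identical run of ALDH3A1 and ALDH3B2.

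A longer identity bears on how far values of ALDH3B1 and ALDH3B2 can be told apart. Their coding sequences were 86.8% identical, and the longest run in common has 64 bases, shown as it stands in both, with no part in capitals.
ALDH3B1 and ALDH3B2: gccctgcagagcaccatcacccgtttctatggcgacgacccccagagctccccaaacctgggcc
Of all 50-base windows of the main ALDH3B2 transcript, 1.35% also occurred in another annotated gene, and of those of ALDH3A1 2.83%. With windows of 100 bases these shares were 0% and 0.164%. The share was far higher for ALDH4A1, at 42.8% of 50-base and 40.4% of 100-base windows, all in the gene model AL080251.1, so the value of ALDH4A1 is uncertain where the authors' counting split such reads. For ALDH2 the shares were 9.79% and 6.21%, and for ALDH7A1, which has the pseudogene ALDH7A1P1, 7.12% and 1.32%. Read length, strandedness and the handling of mouse reads are not given in the sources used here, and any value may include reads of mouse aldehyde dehydrogenase transcripts that aligned to the human gene.

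The libraries were alike in breadth. Pairwise correlations of log2(TPM + 1) ran from 0.962 to 0.988, and depth is unknown because TPM keeps no record of it. NMN 4 correlated at 0.976 to 0.980 with the other NMN tumors, but at 0.983 to 0.988 with Vehicle 1 to 3. With Vehicle 4 it correlated at 0.971. Vehicle 4 correlated at 0.9624 to 0.9785 with the other Vehicle tumors. Markers were read beside the triple-negative label. The summed level of 10 basal epithelial genes was 8978 to 22598.5 TPM and that of 11 luminal genes 1818 to 4067 TPM. Of the luminal genes, PGR was at most 0.02 TPM, ESR1 lay between 3.37 and 6.00 TPM and ERBB2 between 77.6 and 130.03 TPM. No threshold was set for these transcript levels, so they do not settle the label. NMN 4 also stood apart from the other NMN tumors in skeletal muscle transcripts. The summed level of 18 muscle genes was 96.0 to 99.6 TPM in NMN 1 to 3, 725 TPM in NMN 4 and 484 to 2813 TPM in the Vehicle tumors. Of 13358 genes tested with limma and Benjamini-Hochberg adjustment 0 passed at adjusted p under 0.05, that is 0% in either direction, while 927 had an unadjusted p under 0.05. In whole tumors, fewer cells of a type and less RNA per cell cannot be told apart.

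ALDH3A1 (Entrez 218, chromosome 17, 19737984 to 19748943, minus strand) was lower in every NMN tumor than in any Vehicle tumor. Its level was 14.6, 15.4, 16.01 and 18.4 TPM in NMN 1 to 4, and 25.3, 25.8, 26.3 and 25.0 TPM in Vehicle 1 to 4. The groups did not overlap, and a gap of 6.58 TPM separated the highest NMN tumor from the lowest Vehicle tumor. The mean was 16.1 ± 1.65 TPM in NMN tumors (SD, n = 4), which is 62.9% of the Vehicle mean of 25.6 ± 0.577 TPM (SD, n = 4). On the log2(TPM + 1) scale the difference of NMN over Vehicle was -0.64 ± 0.11 (SE), a difference exceeded in size by 2.78% of all tested genes.

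**Figure D1:**
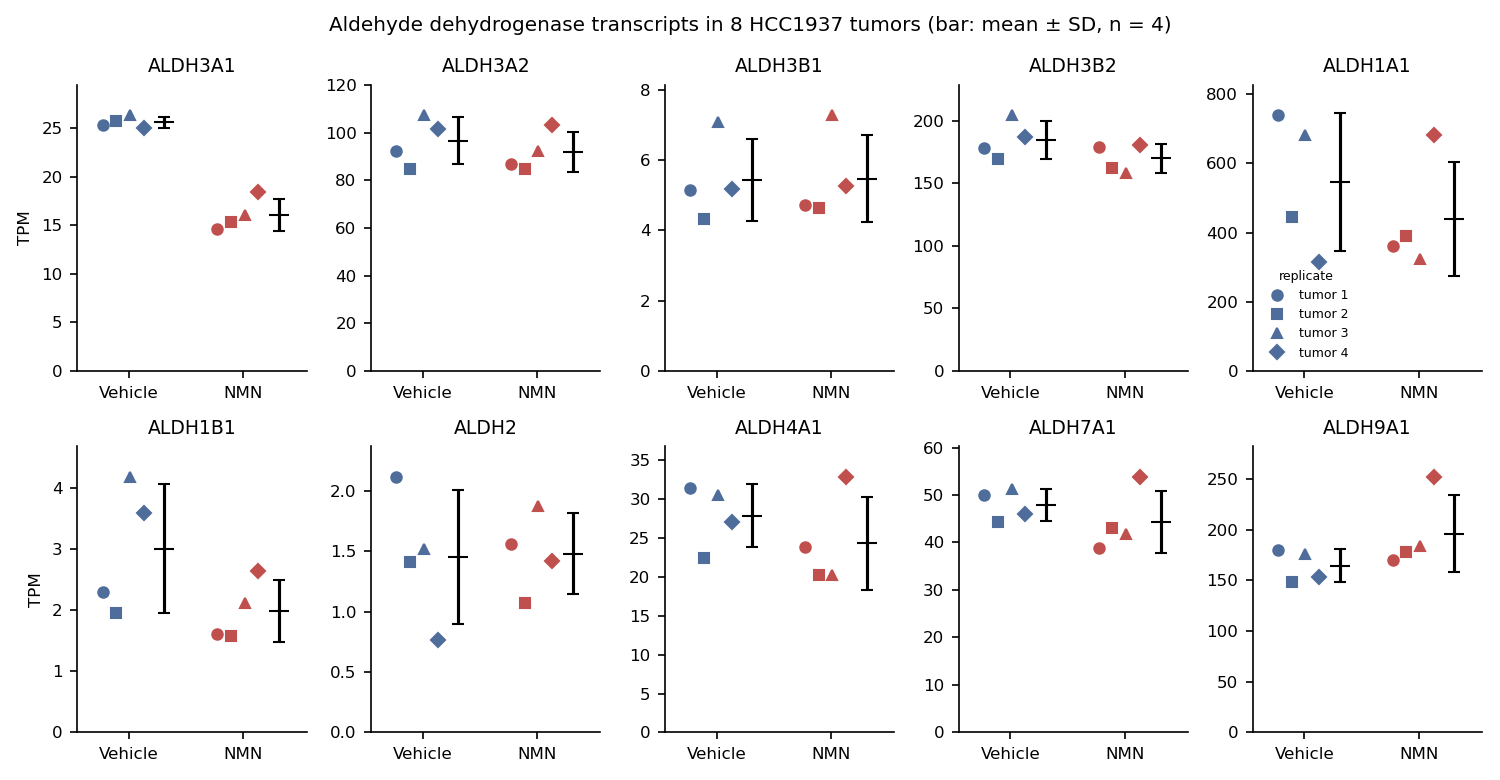
TPM of the 10 aldehyde dehydrogenases in 8 tumors, with 1 panel per gene, the treatment group on the horizontal axis, 1 symbol per tumor and the mean ± SD (n = 4) beside it; every vertical axis starts at 0. ALDH3A1 is the 1 gene whose groups do not overlap, with NMN tumors between 14.6 and 18.4 TPM and Vehicle tumors between 25.0 and 26.3 TPM.

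The Vehicle tumors were closely alike in ALDH3A1. Their coefficient of variation was 2.25%, and 0.584% of tested genes had a smaller one in Vehicle tumors. The NMN tumors varied more, with a coefficient of variation of 10.2%, which 27.8% of tested genes undercut. The within-group SD on the log2 scale was 0.098, where 4.96% of tested genes lay lower. Its mean level was above that of 52.7% of tested genes. A gene chosen for a clean difference between groups will tend to have a small spread within them, so these ranks describe ALDH3A1 and are no separate result.

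**Figure D2:**
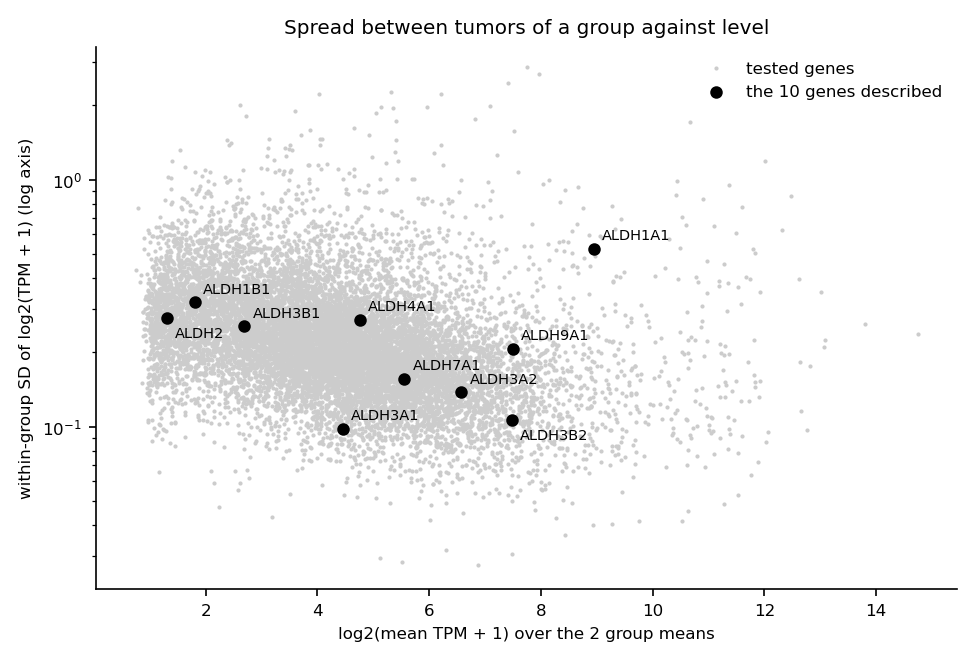
Within-group SD of log2(TPM + 1) on a log axis against the log2 level for the 13358 tested genes in grey, with the 10 aldehyde dehydrogenases in black. ALDH3A1 (SD 0.098) lies low, with 4.96% of tested genes below it, whereas ALDH1A1 (SD 0.53) lies high, above 95.3% of tested genes.

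Muscle and fibroblast transcripts were also lower in NMN tumors on average. Of 18 muscle genes 17 were tested, and 16 had a lower and 1 a higher mean, at a median log2 difference of -3.003. All 17 had an unadjusted p under 0.05 and none passed with limma. Over all 13358 tested genes, 927 had an unadjusted p under 0.05 and 49% had a lower mean. Of 10 fibroblast genes 5 were tested, and all 5 had a lower mean, 3 with an unadjusted p under 0.05 and none passing with limma. Their median was -0.60, beside the -0.64 of ALDH3A1. DCN, LUM, PDGFRA, PDGFRB and THY1 were under the filter, so the 5 tested genes alone do not establish a fibroblast content. The fibroblast sum was 121 to 167 TPM in NMN 1 to 3 and 237 TPM in NMN 4, against 192 to 292 TPM in Vehicle tumors, so NMN 4 alone made the groups overlap. NMN 4 was the NMN tumor with the highest muscle sum, fibroblast sum and ALDH3A1 level. Its muscle sum, 725 TPM, was above the 484 TPM of Vehicle 4. Its fibroblast sum was above the 192 and 217 TPM of Vehicle 1 and Vehicle 2. Its ALDH3A1 level was 18.4 TPM, against 25.3, 25.8 and 25.0 TPM in Vehicle 1, 2 and 4. Host muscle and fibroblasts are mouse cells, so both sums may depend on the handling of mouse reads, which is not given. The part of either cell type in the level of ALDH3A1 was not tested. Without NMN 4 the log2 difference was -0.70, and without each of the other tumors in turn it lay between -0.65 and -0.60.

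ALDH3A2 (chromosome 17, 19648136 to 19677598, plus strand) lies 60385 bases from ALDH3A1 and encodes the fatty aldehyde dehydrogenase of the endoplasmic reticulum. It stood at 86.9, 84.6, 92.4 and 103 TPM across NMN 1 to 4, against 92.4, 84.8, 107 and 101 TPM in Vehicle 1 to 4. The groups overlapped almost fully, and the log2 difference was -0.07 ± 0.10 with a 95% interval from -0.30 to 0.16. The ratio of ALDH3A2 to ALDH3A1 within a tumor was 5.94, 5.51, 5.77 and 5.604 in NMN 1 to 4 and 3.65, 3.29, 4.07 and 4.06 in Vehicle 1 to 4. Because ALDH3A2 differed little, the ratio restates the values on which ALDH3A1 was chosen.

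**Figure D3:**
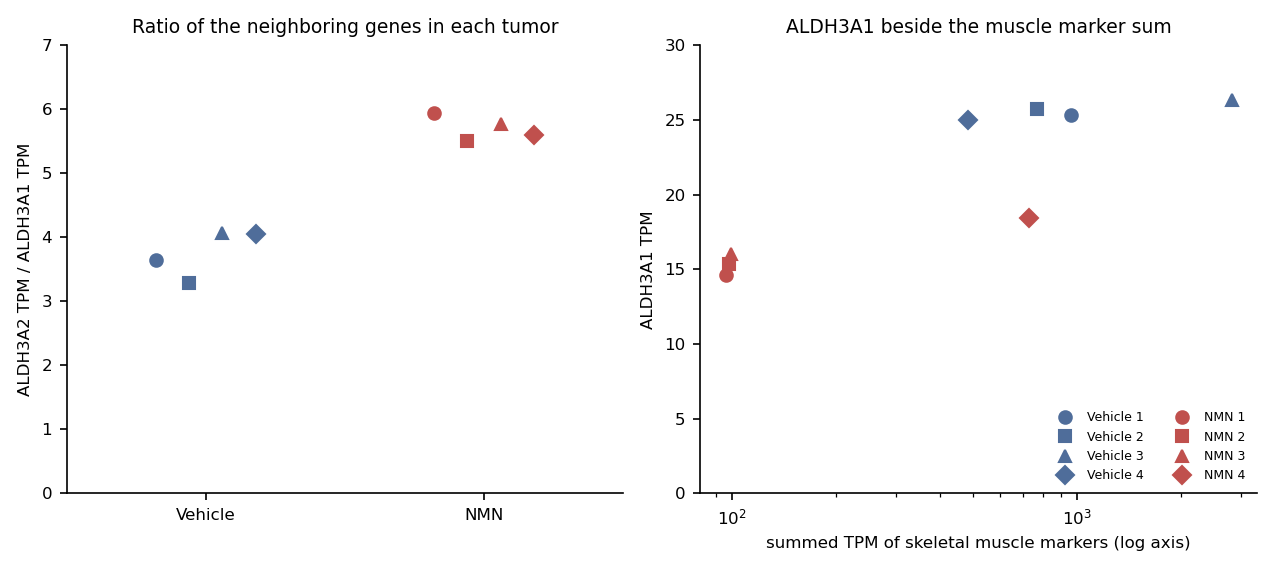
Left, the ratio of ALDH3A2 to ALDH3A1 TPM in each tumor by group, between 3.29 and 4.07 in Vehicle and between 5.51 and 5.94 in NMN tumors. Right, ALDH3A1 TPM against the summed TPM of 18 skeletal muscle genes on a log axis, with NMN 1 to 3 between 96.0 and 99.6 TPM of muscle genes, NMN 4 at 725 TPM and the Vehicle tumors between 484 and 2813 TPM.

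ALDH3B1 and ALDH3B2 encode enzymes that act on long-chain, lipid-derived aldehydes and lie 327377 bases apart on chromosome 11. ALDH3B2 (67662162 to 67681200, minus strand) was the more abundant by far. It ran from 158 to 181 TPM in NMN and from 169 to 204 TPM in Vehicle tumors, a log2 difference of -0.12 ± 0.09. ALDH3B1 (68008578 to 68029282, plus strand) ran from 4.64 to 7.28 TPM and from 4.33 to 7.10 TPM, a log2 difference of 0.01 ± 0.18. In both groups tumor 3 held the highest ALDH3B1 value. Within a tumor ALDH3B2 was 21.7 to 39.1 times as abundant as ALDH3B1, and the part of shared reads in either value was not tested.

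Summed over the 4 ALDH3 genes the level was 283 ± 17.8 TPM in NMN and 312 ± 26.1 TPM in Vehicle tumors (SD, n = 4). ALDH3A1 made up 5.13% to 5.99% of that sum in NMN tumors and 7.63% to 9.07% in Vehicle tumors. The share, too, is built from the values on which ALDH3A1 was chosen and is a description.

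ALDH1A1 (chromosome 9, 72900662 to 73080442, minus strand), which oxidizes retinaldehyde to retinoic acid, was the most abundant of the 10. It stood at 361, 389, 324 and 682 TPM across NMN 1 to 4, against 739.6, 446, 683 and 316 TPM in Vehicle 1 to 4. NMN 4, Vehicle 1 and Vehicle 3 were high and the other 5 tumors low, so both groups hold high and low tumors. The log2 difference was -0.30 ± 0.28 with a 95% interval from -0.91 to 0.31, wide enough to hold a difference as large as that of ALDH3A1 or one in the other direction. Single tumors moved it in both directions, to -0.13 without Vehicle 1, -0.16 without Vehicle 3, -0.17 without NMN 3, -0.53 without NMN 4 and -0.53 without Vehicle 4. The within-group SD of log2(TPM + 1) was the largest of the 10 and larger than in 95.3% of tested genes. On the TPM scale the highest tumor had 2.34 times the lowest for ALDH1A1, less than the 2.75 times for ALDH2 and 2.66 times for ALDH1B1, which are low genes that the added 1 compresses.

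The total of the 10 genes followed ALDH1A1. The 10 genes summed to 882, 900.2, 847 and 1332 TPM in NMN 1 to 4 and to 1306, 949, 1291 and 865 TPM in Vehicle 1 to 4, with ALDH1A1 between 36.5% and 56.6% of the sum. Without ALDH1A1 the sum of the other 9 was 551 ± 66.3 TPM in NMN and 557 ± 43.8 TPM in Vehicle tumors (SD, n = 4), a difference far within the spread.

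ALDH1A3, the other main retinaldehyde dehydrogenase of breast cells and outside the 10, deviated from its mean in the opposite direction to ALDH1A1 in 6 of 8 tumors. The relation did not pass after Benjamini-Hochberg adjustment over the 136 pairs of tested ALDH genes (r = -0.82, exact permutation p = 0.0092, adjusted p = 0.165; rho = -0.88, exact permutation p = 0.0072, adjusted p = 0.147), and r was -0.64 without the 2 tumors farthest from the median of ALDH1A1. ALDH1A3 was lowest, at 7.60 TPM, in Vehicle 1, where ALDH1A1 was highest, and highest, at 32.9 TPM, in Vehicle 4, where ALDH1A1 was lowest. Among NMN tumors, NMN 4 had the highest ALDH1A1 but 17.03 TPM of ALDH1A3, more than the 15.95 TPM of NMN 1. The ratio of ALDH1A1 to ALDH1A3 ran from 9.60 in Vehicle 4 to 97.3 in Vehicle 1, and from 11.4 to 40.0 in NMN tumors, which lay inside the Vehicle range.

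The mitochondrial enzymes included the least abundant genes of the set. ALDH2 (chromosome 12, 111766887 to 111817529, plus strand), the main acetaldehyde-clearing enzyme, was at 1.56, 1.07, 1.88 and 1.42 TPM across NMN 1 to 4, against 2.12, 1.41, 1.52 and 0.77 TPM in Vehicle 1 to 4. The groups overlapped, and the log2 difference was 0.03 ± 0.20. Its close relative ALDH1B1 (chromosome 9, 38392664 to 38398661, plus strand) was at 1.61, 1.57, 2.11 and 2.64 TPM across NMN 1 to 4, against 2.29, 1.95, 4.18 and 3.59 TPM in Vehicle 1 to 4. NMN 1 and NMN 2 were lowest and Vehicle 3 and Vehicle 4 highest. The log2 difference of ALDH1B1, -0.40 ± 0.22, was the largest after ALDH3A1 and did not pass (limma adjusted p = 0.807).

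ALDH4A1 and ALDH7A1 act in amino acid breakdown. ALDH4A1 (chromosome 1, 18871430 to 18902781, minus strand), which turns pyrroline-5-carboxylate from proline into glutamate, was at 23.9, 20.2, 20.2 and 32.9 TPM across NMN 1 to 4, against 31.4, 22.4, 30.5 and 27.1 TPM in Vehicle 1 to 4. NMN 4 held the highest value of all 8 tumors and NMN 2 and NMN 3 the lowest. ALDH7A1 (chromosome 5, 126531200 to 126595418, minus strand), the antiquitin of lysine breakdown, was at 38.9, 43.0, 41.8 and 53.9 TPM across NMN 1 to 4, against 49.9, 44.3, 51.3 and 45.9 TPM in Vehicle 1 to 4. NMN 1 to 3 lay below all Vehicle tumors and NMN 4 above them, and ALDH7A1 was the 1 further gene of the 10 whose groups did not overlap once NMN 4 was left out. Without NMN 4, 9.93% of tested genes did not overlap in either direction and 6.14% with NMN lower, and 1 of the 2 genes is ALDH3A1, chosen for that pattern. The log2 differences with all tumors were -0.21 ± 0.17 for ALDH4A1 and -0.12 ± 0.12 for ALDH7A1. Without NMN 4 they were -0.36 and -0.21, and that of ALDH7A1 was -0.057 without NMN 1, while that of ALDH4A1 was -0.13 without NMN 2 or NMN 3.

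ALDH9A1 (chromosome 1, 165662216 to 165698863, minus strand), which oxidizes trimethylaminobutyraldehyde in carnitine synthesis, had the largest difference toward NMN. It stood at 170, 178, 184 and 252 TPM across NMN 1 to 4, against 180.1, 149, 176 and 153 TPM in Vehicle 1 to 4. NMN 4 was far above the other 7 tumors, which overlapped. The log2 difference of 0.24 ± 0.13 did not pass (limma adjusted p = 0.810), and without NMN 4 it was 0.11.

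Across the 10 genes, the mean log2 level was lower in NMN tumors for 7 and higher for 3, where it was lower for 49% of all tested genes. The median log2 difference of the 10 was -0.12, beside 0.004 over all tested genes. Without ALDH3A1 the mean was lower for 6 of 9 and the median was also -0.12. The median of the 10 was -0.18 without NMN 4 and -0.076 without Vehicle 3. None of the 9 genes other than ALDH3A1 passed with limma (adjusted p from 0.807 to 0.998) or had an unadjusted p under 0.05, beside the 0% called over all genes. In 8 of 160 fits of these 9 genes under the alternatives the limma unadjusted p was under 0.05, and none passed (smallest adjusted p = 0.381). These 8 were in ALDH1A1, ALDH1B1, ALDH4A1 or ALDH9A1. Over all genes, the number at such a p ran from 556 of 13281 without NMN 3 to 1492 of 13358 with library weights. The fits reuse the same tumors, so the count says nothing particular to these genes. With quantile normalization the mean was lower for 9 of the 10. Groups did not overlap in 1 of the 10, ALDH3A1, where 3.05% of tested genes did not overlap in either direction and 0.966% with NMN lower. Since ALDH3A1 was chosen for that pattern, the count says nothing further.

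**Figure D4:**
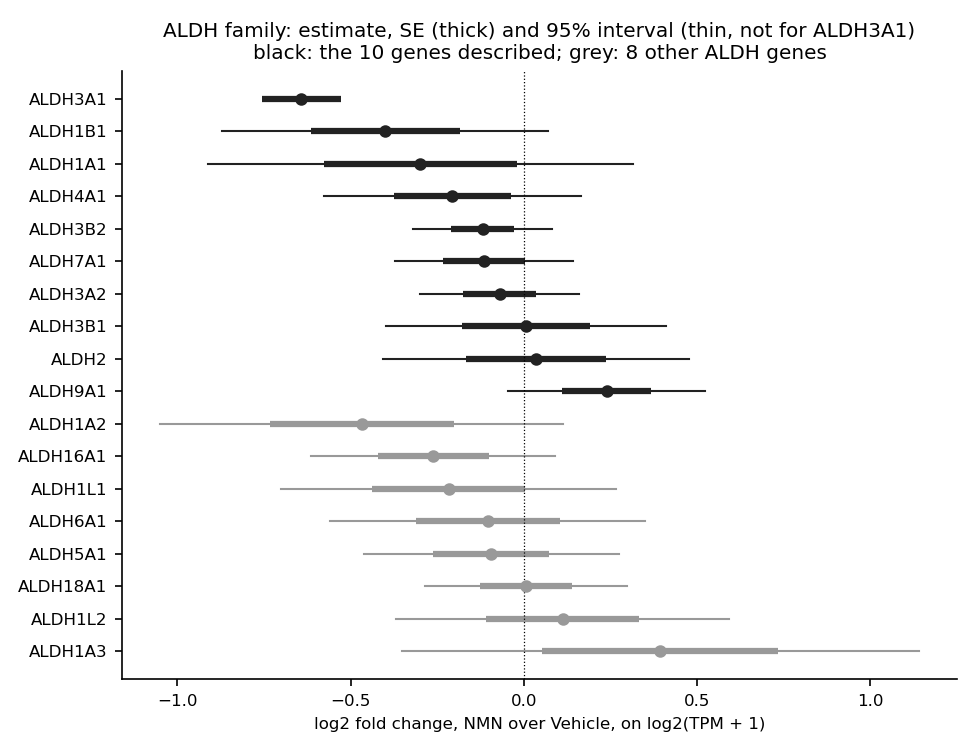
Log2 fold change of NMN over Vehicle on log2(TPM + 1) for the 10 genes (black) and 8 other tested ALDH genes (grey), with the SE as a thick bar and the 95% interval as a thin one, left out for ALDH3A1, which was chosen from this contrast. All drawn intervals include 0.

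NMN 4 and the other NMN tumors differed in their place among the Vehicle tumors. NMN 4 exceeded all Vehicle tumors in 3 of the 10 genes, fell inside their range in 6 and lay under it in 1, which was ALDH3A1. NMN 2 lay below the range in 6, NMN 3 in 4 and NMN 1 in 3. ALDH3A1 was the gene of the 10 for which all 4 NMN tumors were on the same side.

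In order of mean TPM over the 8 tumors, ALDH1A1 (493) was followed by ALDH9A1 (180.2), ALDH3B2 (177), ALDH3A2 (94.1), ALDH7A1 (46.1), ALDH4A1 (26.1), ALDH3A1 (20.9), ALDH3B1 (5.46), ALDH1B1 (2.49) and ALDH2 (1.47). ALDH9A1 and ALDH3B2 could not be ordered, since ALDH9A1 was the higher in 4 of 8 tumors. ALDH4A1 was above ALDH3A1 in 7 of 8 tumors, with ranges that overlapped, and the exception was Vehicle 2. ALDH1B1 was above ALDH2 in all 8 tumors, but their ranges over tumors overlapped. The ranges of all other neighbors in the order were separate.

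The other 9 human ALDH genes complete the family, and 8 of them were high enough to be tested. None of the 8 passed with limma (adjusted p from 0.830 to 0.998), with 3 higher and 5 lower means and a median log2 difference of -0.10. Over all tested genes 49% had a lower mean. The widest differences were those of ALDH1A2, a retinaldehyde dehydrogenase, at -0.47 ± 0.27, and ALDH1A3, at 0.39 ± 0.34. ALDH1A2 was at 0.11 to 1.04 TPM in NMN and 0.18 to 1.25 TPM in Vehicle tumors, close to the filter of 1 TPM. With 0% of tested genes at a lower mean level, its difference is uncertain. ALDH16A1, a family member without known catalytic activity in mammals, was at 17.2 ± 3.61 TPM in NMN and 20.5 ± 1.81 TPM in Vehicle tumors. The folate enzymes ALDH1L1 and ALDH1L2 had differences of -0.22 ± 0.22 and 0.11 ± 0.22, and the mitochondrial ALDH5A1, ALDH6A1 and ALDH18A1 differences of -0.09 ± 0.17, -0.10 ± 0.21 and 0.01 ± 0.13. ALDH8A1 was at most 0.79 TPM and was not tested.

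**Figure D5:**
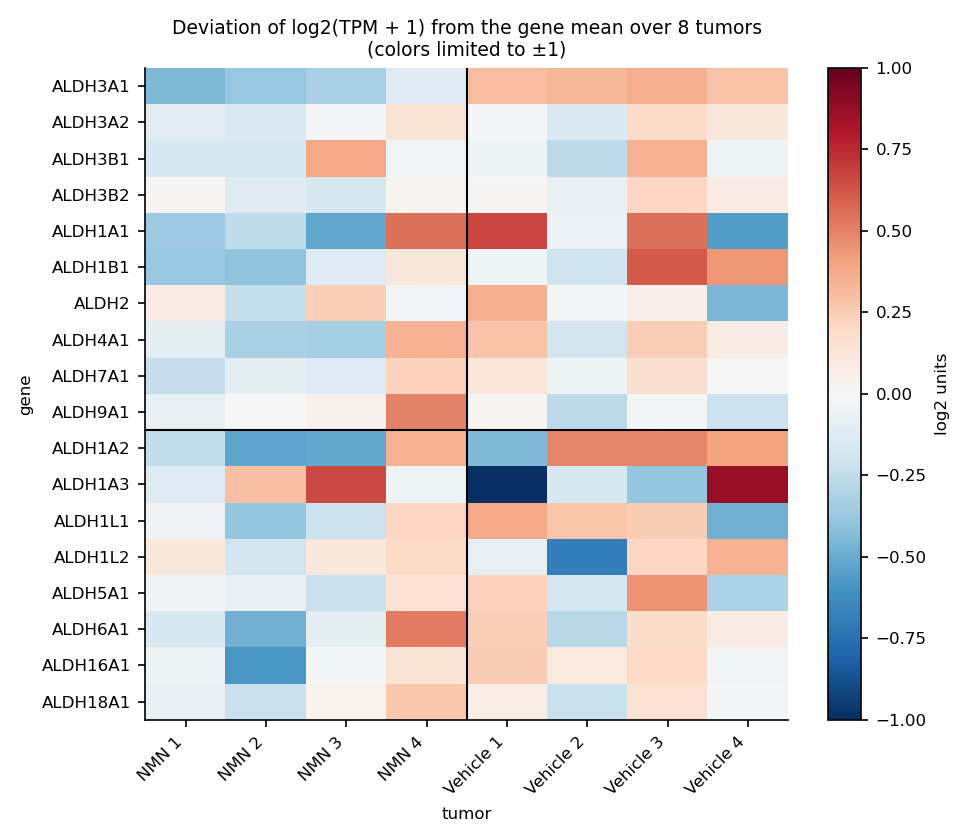
Deviation of log2(TPM + 1) from each gene's mean over the 8 tumors (color scale in log2 units, limited to ±1), with genes in rows, the 10 described genes above the line, and tumors in columns, NMN left of the line. ALDH3A1 is the row with 4 negative NMN values and 4 positive Vehicle values, while ALDH1A1 and ALDH1A3 have opposite signs in 6 of 8 tumors.

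Most pairs of family genes had a positive correlation between tumors, as most pairs of all tested genes did. Over the 17 tested ALDH genes other than ALDH3A1, whose groups form separate clusters, 116 of 136 pairs had a positive Pearson r over the 8 tumors, which is 85.3%, beside 62.9% of all pairs of tested genes. No pair passed after Benjamini-Hochberg adjustment over the 136 (smallest adjusted exact permutation p = 0.0557 for Pearson, 0.0776 for Spearman). Among the described genes the closest pair was ALDH3A2 with ALDH1B1, with r = 0.92 (exact permutation p = 7.4e-04, adjusted p = 0.0557) and rho = 0.95 (exact permutation p = 0.0011, adjusted p = 0.0776). Without the 2 tumors farthest from the median of ALDH3A2 its r was 0.94, and within groups, after removal of the group means, 0.97. ALDH4A1 and ALDH7A1 had r = 0.85 (exact permutation p = 0.0109, adjusted p = 0.165) and rho = 0.83 (exact permutation p = 0.0154, adjusted p = 0.190), with r = 0.77 without the 2 farthest tumors. TPM of a library share a denominator, which was not separated from these relations.

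The genes most like ALDH3A1 were taken by Pearson r of log2(TPM + 1) over the 8 tumors among 10798 tested genes with a mean of at least 5 TPM, as a description with no p. The 5 highest were CAMK1 (r = 0.95), BDH1 (0.95), MAD2L1BP (0.95), PRRG2 (0.94) and PYM1 (0.92). BDH1, an NAD+-dependent dehydrogenase of ketone bodies, was at 63.9, 64.9, 69.9 and 82.8 TPM across NMN 1 to 4, against 86.7, 92.0, 95.5 and 85.9 TPM in Vehicle 1 to 4. After removal of the group means r was 0.97 for BDH1, 0.87 for PRRG2, 0.69 for CAMK1, a calmodulin-dependent kinase, 0.60 for MAD2L1BP and 0.55 for PYM1. These genes were picked for their r over the same tumors, so the within-group values are no separate support.

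The 4 genes most opposed to ALDH3A1 were DHRS1 (r = -0.96), ATF3 (-0.96), HERC3 (-0.95) and ALDOC (-0.95). DHRS1, a short-chain dehydrogenase, was at 79.8, 78.0, 82.3 and 71.0 TPM across NMN 1 to 4, against 66.0, 66.9, 64.9 and 65.5 TPM in Vehicle 1 to 4. As with ALDH3A1, NMN 4 was the NMN tumor nearest to the Vehicle tumors, which were close together. ATF3, a stress-induced transcription factor, and ALDOC, an aldolase of glycolysis, also had their lowest NMN value in NMN 4, at 12.4 and 20.3 TPM, above the highest Vehicle values of 10.8 and 15.6 TPM. None of these 9 genes passed with limma (adjusted p from 0.221 to 0.910), and all had groups without overlap, which a high r with ALDH3A1 favors.

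Of 11 genes of the aryl hydrocarbon receptor battery, the xenobiotic response set to which ALDH3A1 belongs, 8 were tested, ALDH3A1 among them. Of the other 7, 0 passed with limma (1 at an unadjusted p under 0.05, beside 927 of all 13358 tested genes). The classical target CYP1A1 was near 0, at a mean of 0.0775 TPM in NMN and 0.015 TPM in Vehicle tumors, and CYP1A2 and AHRR were under the filter as well. The receptor AHR and its partner ARNT had log2 differences of 0.19 ± 0.20 and 0.06 ± 0.15, and the targets TIPARP and CYP1B1 of 0.07 ± 0.10 and -0.10 ± 0.25. NQO1, a quinone reductase, was at 246 ± 39.4 TPM in NMN and 292 ± 21.6 TPM in Vehicle tumors, a log2 difference of -0.26 ± 0.12 (limma adjusted p = 0.715). GSTA1, a glutathione transferase, was at 1.67 ± 0.905 and 3.49 ± 2.34 TPM. Means in NMN tumors were higher for 3 and lower for 4 of the 7, beside 49% lower over all tested genes. The median log2 difference of the 7 was -0.07.

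Of 21 other oxidoreductases of aldehydes and alcohols, 16 were tested and 0 passed with limma (2 at an unadjusted p under 0.05). There were 5 higher and 11 lower means, with a median log2 difference of -0.03. Over all 13358 tested genes, 927 had an unadjusted p under 0.05 and 49% had a lower mean. The widest difference was that of ADH7, the class IV alcohol dehydrogenase of the upper digestive tract, which also oxidizes retinol. ADH7 was at 9.12, 13.6, 9.47 and 16.8 TPM across NMN 1 to 4, against 28.0, 14.8, 25.4 and 27.3 TPM in Vehicle 1 to 4. Vehicle 2 lay inside the NMN range, and the log2 difference was -0.91 ± 0.23 (limma adjusted p = 0.305). ADH1C was at 3.69 ± 0.790 and 6.998 ± 2.89 TPM (NMN, then Vehicle), and the aldo-keto reductase AKR1B10 at 18.1 ± 6.55 and 25.8 ± 6.69 TPM. ADH5, the widely expressed formaldehyde-clearing enzyme, had a log2 difference of -0.17 ± 0.12, and the carbonyl reductase CBR1 one of -0.05 ± 0.09.

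Markers of other cells were read beside these values. Of the 10 fibroblast genes 5 were under the filter, and DCN, a defining gene, was at most 0.02 TPM. Host cells are mouse cells, and the handling of mouse reads is not given. These marker values therefore do not settle how many cells of a type were present. Sums of 7 endothelial, 7 adipocyte and 8 myeloid genes were 5.40 to 7.32, 16.9 to 218 and 51.5 to 92.2 TPM in NMN tumors, and 3.66 to 5.67, 11.8 to 101 and 54.3 to 78.7 TPM in Vehicle tumors. The luminal sum of 11 genes was 3036 to 4067 TPM in NMN and 1818 to 3332 TPM in Vehicle tumors. Each of these sums overlapped between groups, and their part in the level of ALDH3A1 was not tested. Single genes at a limma unadjusted p under 0.05 were 4 of 10 tested luminal, 1 of 2 endothelial, 1 of 6 myeloid and 0 of 3 adipocyte genes. None passed after adjustment, and 927 of all 13358 tested genes had such a p. Groups did not overlap in 1 luminal and 1 endothelial gene, beside 3.05% of all tested genes.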

How the data were processed

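RNA of 8 tumors was sequenced, 4 per group. The values are TPM per gene, deposited by the authors with 1 column per tumor, and the unit is named per the file headers. RSEM 1.2.8, Bowtie2 2.2.5, HISAT2 2.1.0 and the build GRCh38.p13 are listed, without roles, per the submitters' processing notes.

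Genes with at least 1 TPM in at least 4 libraries (13358) were fitted with limma 3.58.1 (R 4.3.3) on log2(TPM + 1) with a variance trend and no term but group, two-sided, with Benjamini-Hochberg adjustment at 0.05 over all genes. TPM is no count, so no count model was used. Adding 1 understates differences of low genes. On simulated data for this comparison (13358 genes, 200 changed, 10 simulations, independent noise) the fit recovered 45.0% of genes changed 1.5-fold, 84.4% changed 2-fold and 98.8% changed 4-fold. Changed genes were drawn only from those with a mean above about 5 TPM, so the rates do not cover ALDH2 and ALDH1B1.

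Groups and replicate numbers come from the sample titles. Positions, transcripts and 50- and 100-base windows are from GENCODE 29 (GRCh38), searched on both strands. Of the 10 genes 7 had a RefSeq promoter entry, and none is shown.

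The genes and lists were chosen with earlier results of these data known. Genes named are the 10, all other ALDH genes, the 6 most and 4 least like ALDH3A1 (1 of the 6 is not reported here), up to 3 genes per pathway list with the smallest unadjusted p, and others needed to describe a list, chosen after their values were seen. Alternatives were each tumor left out, the replicate number as a block, library weights, quantile or median-of-ratios scaling, pseudocounts of 5 and 0.1, a 5 TPM filter or none, no trend, and a robust fit.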

Additional observations from a re-analysis of the deposited data

Results flagged for a closer look

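In 2 of 38 sets of 4 tumors (19 ALDH genes in each group) 1 tumor lay far from the other 3, by Dixon's test on log2(TPM + 1), and chance gives about 1 in 20 such sets. ALDH1A2 was at 0.18 TPM in Vehicle 1 and at 1.1 to 1.25 TPM in the other Vehicle tumors. ALDH1L1 was at 1.18 TPM in Vehicle 4 and at 2.62 to 2.96 TPM in the others. Neither is among the 10 genes described.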

How the results depend on the processing

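The log2 difference of ALDH3A1 stayed negative in all 18 alternatives, from -0.70 (without NMN 4) to -0.54 (pseudocount 5, which shrinks differences by construction). With 1 tumor left out it ran from -0.70 to -0.60. Leaving out a tumor or changing the pseudocount could not turn its sign, because the groups of ALDH3A1 do not overlap. As ALDH3A1 was chosen for its difference, the constant sign is no separate support. The median over the 10 genes lay between -0.18, without NMN 4, and -0.076, without Vehicle 3, and the number of genes among the 10 without overlap was 1 or, without NMN 4, 2, where 9.93% of all tested genes did not overlap. The number of genes called over the whole table was 0 in 14 alternatives, 54 with library weights, 2 with the replicate block and, with 1 tumor left out, from 0 to 53 (53 without NMN 4, 1 without Vehicle 3). The cause was not tested. Same-numbered tumors gave no sign of pairing, although this cannot show that they were unpaired. Their deviations from the group means correlated at 0.026, 0.001, -0.032 and -0.12 over genes, beside -0.278 to 0.194 for differently numbered tumors. The estimate of ALDH3A1 with the replicate block, -0.64, was fixed in advance, because each number holds 1 tumor of each group. ALDH3B1 and ALDH2 changed sign among the alternatives, within -0.12 to 0.12 and -0.11 to 0.16. With 1 tumor left out ALDH1A1 ran from -0.53 to -0.13, ALDH1B1 from -0.53 to -0.26, ALDH3A2 from -0.13 to -0.017, ALDH3B2 from -0.16 to -0.070 and ALDH9A1 from 0.11 to 0.30. With library weights ALDH1A1 was at -0.57, ALDH7A1 at -0.22 and ALDH9A1 at 0.12. Depth is unknown, which limits most the genes near 1 TPM, among the 10 ALDH2 and ALDH1B1, and outside them genes such as ALDH1A2.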

Other observations

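Targets of NRF2, the antioxidant transcription factor that also acts on NQO1, were read as a further set. The set also holds NFE2L2, which encodes NRF2 itself, and KEAP1. All 17 listed genes were tested and 0 passed with limma (2 had an unadjusted p under 0.05), with 7 higher and 10 lower means. Their median log2 difference was -0.10. Over all 13358 tested genes, 927 had an unadjusted p under 0.05 and 49% had a lower mean. ME1, the malic enzyme that makes NADPH, was at 73.5, 77.3, 63.9 and 104.9 TPM across NMN 1 to 4, against 94.97, 100.3, 96.6 and 102.5 TPM in Vehicle 1 to 4. NMN 4 was the highest of all 8 tumors and the other NMN tumors lay below every Vehicle tumor, the arrangement also seen in ALDH7A1. KEAP1, the repressor of NRF2, was at 55.8 ± 7.15 TPM in NMN and 66.0 ± 6.44 TPM in Vehicle tumors. HMOX1, the heme oxygenase, had a log2 difference of 0.49 ± 0.26 and SLC7A11, the cystine transporter, one of -0.41 ± 0.21, so the members of the set did not share a direction.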
